A study of Mus musculus with 8 samples.

Results

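Collagens and the enzymes that modify them were followed in infarcted and sham-operated mouse hearts. Genes were chosen by symbol: every collagen chain, the lysyl oxidases, the prolyl and lysyl hydroxylases, the procollagen C-proteinase enhancers and the collagen chaperone Serpinh1. This gave 49 genes on 102 spots, out of 13661 genes with a symbol of their own on an array of 33600 spots. They were 11 chains of fibrillar collagens, 8 of basement membrane collagens, 18 of other collagens and 12 modifying enzymes. Serpinh1, Loxl2, Col6a3, Col12a1 and Col16a1 were not analysed here.

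Collagen chains wind around each other in a helix inside the cell and are secreted as procollagen. Fibrillar types I and III form the fibres that carry load, and type IV forms the sheet-like network of basement membranes around muscle cells and vessels. Prolyl hydroxylases (P4ha) make the helix stable, lysyl hydroxylases (Plod) prepare the cross-links, the Pcolce proteins speed the trimming of procollagen, and lysyl oxidases (Lox, Loxl) start the cross-links outside the cell. After an infarct, fibroblasts are known to lay down a scar rich in types I and III.

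The infarcted group held whole hearts of 4 C57Bl/6 mice with a permanent ligature on the descending branch of their left coronary artery. The sham control group held hearts of 4 mice of that strain operated on without the knot. All mice were 8 to 10 weeks old, and how long after the operation they were sampled is unknown here. Each heart was 1 array with heart RNA in the red dye and, in the green dye, a reference pooled from adult mouse organs that included heart, per the labels. Whole hearts mix scar, border and distant muscle, and a lower signal from fewer cells of a type cannot be told apart from less RNA per cell.

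The deposited values were not heart-to-reference ratios. In all 384 combinations of block and array they were log2 signals of whole-number steps divided by 1 constant, the median of 700 neighbouring spots, so a level of 0 is the median spot of a block. Which of the dyes they came from is unknown here. If it was the green dye of the reference, the infarcted minus sham differences below need not measure RNA of these hearts. Heart muscle genes were bright, with Ckm, the muscle creatine kinase, at 5.75 to 6.25 on the infarcted arrays and 6.28 to 7.01 on 3 sham arrays. Some genes of other organs in the reference pool also stood well above 0. Prm1, a sperm protamine, had levels of 1.77, 3.07, 3.35 and 4.12 on infarcted replicates 1 to 4, against 5.05, 4.03, 5.61 and 4.09 on sham replicates 1 to 4. Tff1, a stomach peptide, had 2.50, 3.55, 3.73 and 4.08 on the infarcted arrays, against 5.13, 4.08, 4.78 and 4.30 on the sham arrays. Of 36 tested genes from testis, stomach, lung, liver, kidney and brain, chosen after their values were seen, 32 had a negative log2 fold change, with a median of -0.86 (-0.63 after quantile normalization), and 1 passed the test described below, Prm2. The organs were not alike. All 9 testis, 8 stomach and 4 lung genes tested were negative and 9 of 10 liver genes, but only 2 of 4 brain genes, and the 1 tested kidney gene was positive. The brain genes had mean levels of 0.00 to 0.55 on the infarcted arrays, against -0.77 to 0.44 on the sham arrays, and 5 of 7 kidney genes had no value on any array. Over the 35 of these organ genes with a value on every array, the mean level was 1.59 to 1.87 on the infarcted arrays, against 2.67, 1.68, 3.00 and 2.59 on sham replicates 1 to 4. The part of this signal in the results below was not tested.

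No collagen or modifying enzyme passed the test for a difference between infarcted and sham arrays. Of the 49 genes, 33 had values on at least 3 arrays of each group and were tested, and 0 passed with limma at a Benjamini-Hochberg adjusted p under 0.05. Features were genes, with their spots averaged, and single spots that had no symbol or several. Shares of features are thus not shares of genes. Over all 18044 features 99 passed (0.549%), 10 of them higher (0.0554%) and 89 lower (0.493%) on the infarcted arrays. At an unadjusted p under 0.05 stood 10 of the 33 genes, beside 12.3% of all features. The number that passed over all features was 11, 6, 3 and 5 without infarcted replicate 1, 2, 3 or 4, and 21, 30, 24 and 615 without sham replicate 1, 2, 3 or 4. It was 0 for collagens and modifying enzymes in each of these fits. Sham replicate 4 correlated across spots at 0.87 to 0.89 with each other array, where all other pairs had 0.90 to 0.96. This array also had the fewest values (19704). The part of this in the count of 615 was not tested.

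The signs of the fitted differences were uneven across the 4 classes. Fibrillar collagens had a median log2 fold change (infarcted minus sham) of -0.46, with 7 of 9 tested chains negative. Basement membrane collagens had a median of -0.54, with 6 of 7 negative. Col4a6, counted there as negative, was positive (0.41) at its only comparable spot. With the most complete spots the basement membrane median was -0.46. Other collagens had -0.21 with 5 of 8 negative. Modifying enzymes had 0.16 with 4 of 9 negative, and this median was -0.0057 without infarcted replicate 1 and -0.0086 without sham replicate 4. The others kept their sign with any 1 array left out. The fibrillar median was -0.27 and the basement membrane median -0.36 without sham replicate 3, and that of other collagens was -0.14 without infarcted replicate 2 and -0.37 without sham replicate 2. All features had a median of -0.08, and 57.5% of them were negative. The fibrillar and basement membrane medians lay close together against the range of the single chains, which ran from -1.27 to 0.10 in the fibrillar class and from -1.21 to 0.96 in the basement membrane class. The difference between classes was not tested. Groups without overlap were seen for 1 of the 33 genes on the higher side, beside 2.62% of all features, and for 4 on the lower side, beside 6.27%, together 5 genes beside 8.89%. These genes were Lox on the higher side and Loxl1, Col2a1, Col3a1 and Col4a5 on the lower.

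**Figure D1:**
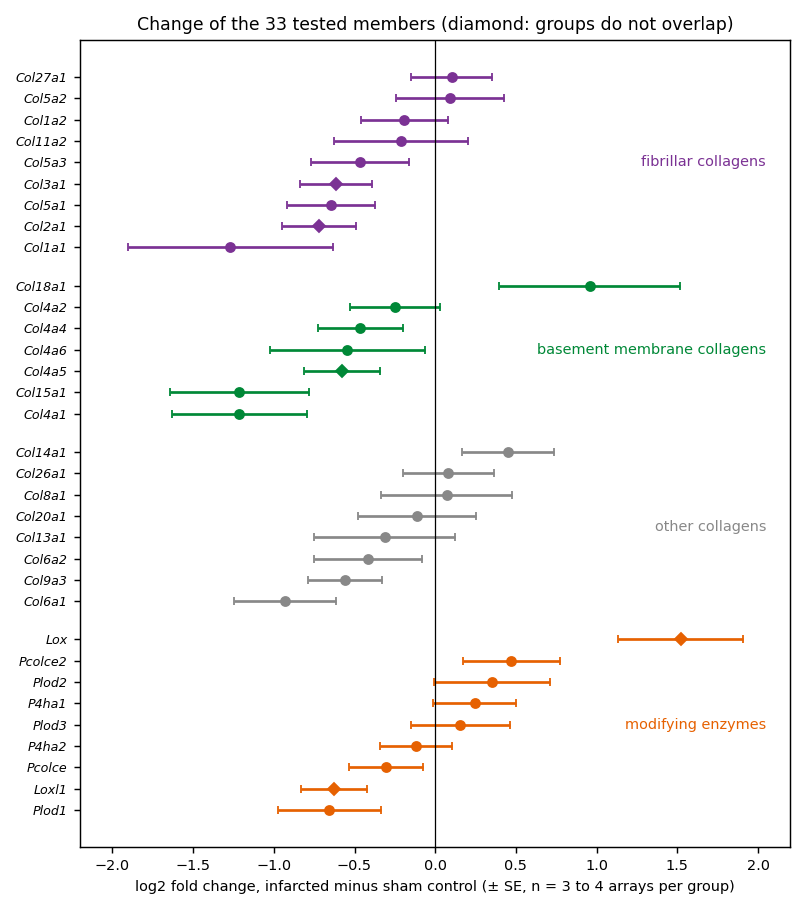
Log2 fold change, infarcted minus sham control, of the 33 tested genes on the x axis, with the standard error of the limma fit as bars, grouped by class down the page. Lox lies farthest to the right at 1.52 and Col1a1 farthest to the left at -1.27, and diamonds mark the 5 genes whose groups did not overlap.

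Among the cross-linking enzymes, the signals of Lox and Loxl1 lay on opposite sides. Lox, lysyl oxidase, which oxidises lysines of collagen and elastin, had levels of 0.02, 0.22, 1.11 and 1.57 on infarcted replicates 1 to 4, against -0.45, -1.38, -0.97 and -0.36 on sham replicates 1 to 4. Every infarcted array was above every sham array. The log2 fold change was 1.52 ± 0.39 (SE, adjusted p = 0.126), a 2.87-fold higher signal, and it stood at 1.24 to 1.76 over the main fit and 17 alternatives, with limma adjusted p from 0.0629 to 0.347. Loxl1, the family member best known for elastic fibres, had 2.07, 2.19, 1.93 and 2.32 on the infarcted arrays, against 2.89, 2.88, 2.58 and 2.69 on the sham arrays. Here every infarcted array was below every sham array. The log2 fold change was -0.63 ± 0.20 (SE, adjusted p = 0.234), and -0.46 after quantile normalization. Both genes rested on 1 spot with values. Loxl3 had a value on 1 infarcted and 2 sham arrays and Loxl4 on none, so neither was tested.

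Of the hydroxylases, which work in the endoplasmic reticulum, none passed the test. P4ha1, a catalytic subunit of prolyl 4-hydroxylase, had 1.06, 0.77, 0.61 and 0.28 on the infarcted arrays, against 0.36, 0.27, 0.93 and 0.19 on the sham arrays, a log2 fold change of 0.24 ± 0.26 (SE, adjusted p = 0.771). A spot of P4ha1 with a value on sham replicate 3 alone raised that array's mean, and the 2 more complete spots gave 0.44 with an adjusted p of 0.468. P4ha2, the second such subunit, had 1.27, 0.93, 0.80 and 0.59 on the infarcted arrays, against 0.92, 1.21, 1.08 and 0.87 on the sham arrays, with -0.12 ± 0.22. Its groups overlapped widely.

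Plod1, the lysyl hydroxylase of helical lysines, had 0.00, 0.16, -1.12 and -0.91 on the infarcted arrays, against 0.28, 0.39, 0.02 and 0.06 on the sham arrays. Infarcted replicates 3 and 4 were far below all sham arrays, replicate 1 was just below them and replicate 2 lay among them, which gave -0.66 ± 0.32 (SE, adjusted p = 0.454). Plod2, the enzyme that hydroxylates telopeptide lysines, had 0.49, 0.70, 0.67 and 1.41 on the infarcted arrays, against 1.29, 0.06, 0.74 and -0.23 on the sham arrays, with 0.35 ± 0.36 (SE). The sham arrays spanned the infarcted ones almost entirely. Plod3, which also adds sugars to hydroxylysine, had a log2 fold change of 0.16 ± 0.30 (SE).

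For the procollagen enhancers, Pcolce had 2.33, 2.10, 2.06 and 1.98 on the infarcted arrays, against 2.10, 2.85, 2.46 and 2.28 on the sham arrays. Its log2 fold change was -0.30 ± 0.23 (SE, adjusted p = 0.658), with both of its spots lower in the mean. Pcolce2, a related enhancer, had 1.07, 0.64, 1.99 and 1.35 on the infarcted arrays, against 0.69, 1.13, 0.71 and 0.63 on the sham arrays. Infarcted replicate 3 had the highest level, and the log2 fold change was 0.47 ± 0.30 (SE, adjusted p = 0.587).

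**Figure D2:**
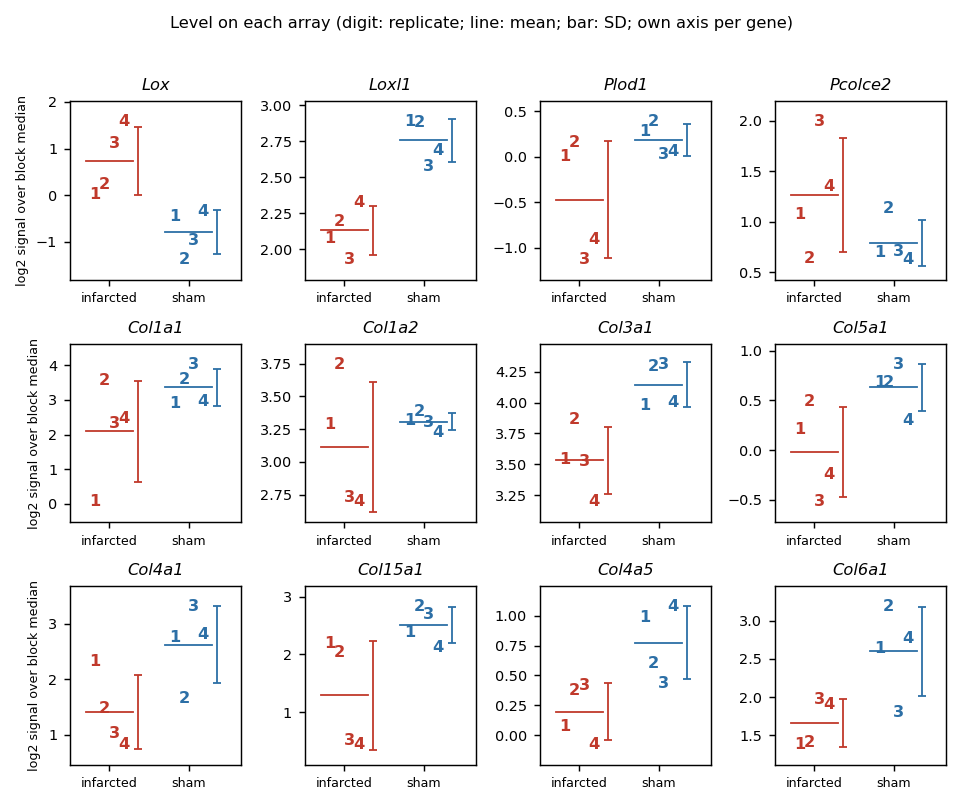
Level of 12 genes on each array, as log2 signal over the block median on the y axis, with infarcted arrays at the left and sham control arrays at the right of each panel. Digits are replicate numbers, lines the group means and bars the SD. Lox is above and Loxl1, Col3a1 and Col4a5 are below all sham arrays, while Col15a1 and Plod1 are lowest on infarcted replicates 3 and 4.

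Among the fibrillar collagens, the chains of types I and III had lower mean signals on the infarcted arrays, though none passed the test and the sign for Col1a2 turned with the scaling. Col1a1, a chain of type I collagen, had 0.06, 3.55, 2.32 and 2.45 on infarcted replicates 1 to 4, against 2.89, 3.58, 4.03 and 2.96 on sham replicates 1 to 4. Infarcted replicate 1 stood far below the other arrays. The log2 fold change was -1.27 ± 0.64 (SE, adjusted p = 0.466) with that array and -0.59 without it. Col1a2, the partner chain in the same helix, had 3.28, 3.74, 2.73 and 2.70 on the infarcted arrays, against 3.32, 3.38, 3.30 and 3.22 on the sham arrays, with no such low value on infarcted replicate 1. The sham arrays lay close to each other, and infarcted arrays lay on both sides of them, which gave -0.19 ± 0.27 (SE, adjusted p = 0.836) and a positive sign after quantile normalization (0.12) and after loess (0.15). Col3a1, the single chain of type III collagen, had 3.54, 3.87, 3.52 and 3.20 on the infarcted arrays, against 3.97, 4.30, 4.31 and 4.0 on the sham arrays. All infarcted arrays were below all sham arrays, with -0.61 ± 0.22 (SE, adjusted p = 0.293) and -0.15 after quantile normalization. Col1a1, Col1a2 and Col3a1 had 1 spot each.

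Type V collagen, which sits inside type I fibres and limits their width, had fitted values of either sign, and none of its chains passed the test. Col5a1 had 0.20, 0.49, -0.52 and -0.24 on the infarcted arrays, against 0.68, 0.68, 0.86 and 0.30 on the sham arrays. Infarcted replicate 2 overlapped the sham arrays, and the log2 fold change was -0.65 ± 0.27 (SE, adjusted p = 0.368), with 4 of 5 spots lower and 1 higher. Col5a2 had 0.83, 0.89, 0.88 and -0.56 on the infarcted arrays, against 0.41, 0.40, 0.38 and 0.46 on the sham arrays. Infarcted replicates 1, 2 and 3 were above all sham arrays and replicate 4 was below them all, so that the fitted value was 0.09 ± 0.33 (SE, adjusted p = 0.942) and 0.45 without infarcted replicate 4. It was -0.01 without infarcted replicate 1 and -0.03 without infarcted replicate 2 or 3. Col5a3 stood at -0.46 ± 0.30 (SE), with 3 of 4 spots lower. Its value depended on how spots were joined, at -0.78 with the most complete spots and -0.21 with the median of spots.

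Chains known mainly from cartilage were also on the array. Col2a1, the chain of type II collagen, had -2.17, -1.61, -1.64 and -1.40 on the infarcted arrays, against -0.91, -1.12, -0.93 and -0.97 on the sham arrays. The infarcted arrays were all below the sham arrays, both under the block median, with -0.72 ± 0.23 (SE, adjusted p = 0.216). Col11a2 and Col27a1 stood at -0.21 ± 0.41 and 0.10 ± 0.25 (SE), and the comparable Col11a2 spots were 2 lower and 1 higher. The value for Col11a2 depended on how spots were joined, at -0.91 with the median of spots and -0.47 with the most complete spots, and ran from -0.52 to 0.05 with 1 array left out. Among cartilage markers, Sox9, a transcription factor also present in activated fibroblasts, had 1.22, 0.95, 1.17 and 0.92 on the infarcted arrays, against -0.67, 0.88, 0.13 and -0.74 on the sham arrays, with 1.16 ± 0.35 (SE, adjusted p = 0.202). Comp, a matrix protein that binds collagen fibrils, stood at 1.29 ± 0.46 (SE, adjusted p = 0.285), and Acan, the large cartilage proteoglycan, at 0.02 ± 0.32 from 7 arrays, all its levels below 0. Of 7 cartilage markers on the array 3 were tested, and the mean level of Sox9 and Comp was 0.91 to 1.96 on the infarcted arrays, against -0.23 to 0.68 on the sham arrays. Their part in the Col2a1 values was not tested.

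Basement membrane collagens had a median SD of 0.66 over 7 chains on the infarcted arrays and 0.39 on the sham arrays, though the infarcted SD was the larger in 3 of the 7. Over all features the median SD was 0.33 on the infarcted arrays and 0.46 on the sham arrays. Col4a1, a chain of the ubiquitous type IV network, had mean levels of 2.32, 1.47, 1.02 and 0.83 on infarcted replicates 1 to 4, against 2.75, 1.65, 3.30 and 2.80 on sham replicates 1 to 4. Its log2 fold change was -1.21 ± 0.42 (SE, adjusted p = 0.265), with all 5 comparable spots lower, at -0.60 to -1.55. The groups overlapped through sham replicate 2. A further dim spot of Col4a1, with a value of -2.86 on infarcted replicate 2 alone, lowered the mean of that array. Col4a2, which winds with Col4a1 into 1 helix, had 0.66, 1.62, 0.76 and 0.78 on the infarcted arrays, against 1.06, 1.12, 1.65 and 1.00 on the sham arrays, with -0.25 ± 0.28 (SE, adjusted p = 0.783). Of its 5 comparable spots 4 were lower and 1 was higher, between -0.91 and 0.82. A further dim spot of Col4a2 had -3.15 on infarcted replicate 1, against -2.0 and -2.36 on sham replicates 1 and 3, and lowered the means of those arrays. Over the 5 comparable spots alone the means were 1.42, 1.62, 0.76 and 0.78 on the infarcted arrays, against 1.67, 1.12, 2.45 and 1.00 on the sham arrays, with a log2 fold change of -0.41. The Col4a2 value was -0.47 without infarcted replicate 2, -0.15 without infarcted replicate 1, -0.10 without sham replicate 3 and -0.11 after quantile normalization. Averages over spots thus mix bright and dim signals, and the brightest spot of each chain is given on its own. At the brightest spot of Col4a1 the levels were 3.78, 3.76, 2.85 and 2.50 on infarcted replicates 1 to 4, against 3.92, 4.03, 3.68 and 4.18 on the sham arrays. At the brightest spot of Col4a2 they were 3.38, 3.55, 2.42 and 2.25 on the infarcted arrays, against 3.87, 3.76, 4.04 and 3.46 on the sham arrays. Infarcted replicates 3 and 4 were thus below all other arrays at both spots.

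**Figure D3:**
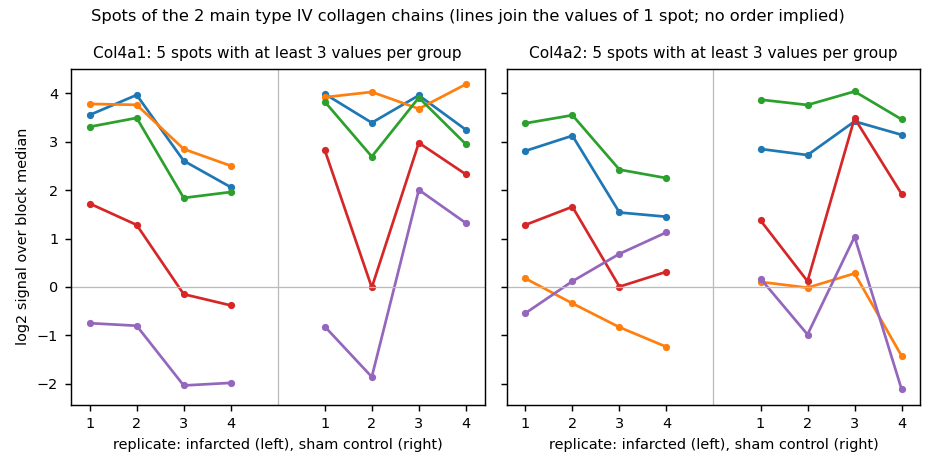
Log2 signal over the block median on each array for the 5 comparable spots of Col4a1 (left) and of Col4a2 (right), infarcted replicates left of sham replicates in each panel. Lines join the values of a spot and imply no order. Infarcted replicates 3 and 4 lie below replicates 1 and 2 at all 5 spots of Col4a1 and at 4 of the 5 of Col4a2.

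Col4a1 and Col4a2 are neighbours that are read in opposite directions from a common promoter. It is shown here because both chains had their lowest bright-spot values on infarcted replicates 3 and 4. This was not particular to the pair. Both arrays were also below all others for Col1a2, Col5a1, Col6a2, Col15a1 and Plod1, among others, which lie on other chromosomes. The part of the common promoter in these values was not tested. In the RefSeq table of assembly GRCm38.p6 their starts were 21 bases apart on chromosome 8, and the windows of 300 bases around each start shared 78. The Col4a1 window, chr8:11312777-11313076 on the minus strand, is set below beside those of Col1a2, chr6:4505368-4505667, and Col3a1, chr1:45311288-45311587, both on the plus strand, as bright fibrillar chains. Capitals mark, on either strand, the CCAAT box, searched as those letters, the TATA box, searched as TATAAA, and the GC box, searched as GGGCGG.
Col4a1: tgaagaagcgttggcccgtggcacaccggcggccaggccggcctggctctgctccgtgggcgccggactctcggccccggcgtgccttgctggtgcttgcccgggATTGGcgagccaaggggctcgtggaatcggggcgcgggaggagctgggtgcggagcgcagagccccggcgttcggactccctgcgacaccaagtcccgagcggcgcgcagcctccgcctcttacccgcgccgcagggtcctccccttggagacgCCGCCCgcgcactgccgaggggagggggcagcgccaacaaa
Col1a2: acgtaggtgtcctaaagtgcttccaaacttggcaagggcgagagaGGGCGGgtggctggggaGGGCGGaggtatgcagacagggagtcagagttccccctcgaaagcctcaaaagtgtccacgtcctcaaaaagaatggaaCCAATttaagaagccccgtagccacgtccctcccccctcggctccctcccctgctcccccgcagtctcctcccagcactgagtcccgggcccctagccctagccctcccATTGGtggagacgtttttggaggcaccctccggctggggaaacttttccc
Col3a1: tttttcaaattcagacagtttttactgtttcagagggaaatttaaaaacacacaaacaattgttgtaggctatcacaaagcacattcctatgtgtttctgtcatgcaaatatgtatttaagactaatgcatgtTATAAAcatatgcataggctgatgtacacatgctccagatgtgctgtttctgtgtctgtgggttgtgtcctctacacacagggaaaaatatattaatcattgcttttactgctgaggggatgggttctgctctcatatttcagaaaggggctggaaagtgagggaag
Counted from the start, the Col4a1 window had a CCAAT box on the other strand at -145, a GC box on the other strand at 9 and no TATA box match. Col1a2 had CCAAT boxes at -109 and, on the other strand, at 0, and GC boxes at -205 and -188. Col3a1 had a TATA box match alone, at -117. Of 32851 windows in the table, 37.4% held a CCAAT box, 13.6% a TATA box and 35.7% a GC box. Windows were found for 37 of the 49 genes, 40 in all, of which 30% held a CCAAT box, 17.5% a TATA box and 65% a GC box. A match describes the letters and does not show that a factor was bound.

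Col15a1 and Col18a1, which belong to the basement membrane zone of vessels and muscle, had fitted values of opposite sign, neither past the test. Col15a1 had 2.18, 2.04, 0.50 and 0.44 on infarcted replicates 1 to 4, against 2.38, 2.82, 2.69 and 2.12 on sham replicates 1 to 4. Infarcted replicates 3 and 4 stood far below all sham arrays, and infarcted replicate 1 lay above sham replicate 4. The log2 fold change was -1.21 ± 0.43 (SE, adjusted p = 0.281), with both comparable spots lower. Col18a1, the source of endostatin, had 2.45, 0.35, no value and 2.17 on the infarcted arrays, against 0.29, 0.69, 1.72 and 0.11 on the sham arrays, with 0.96 ± 0.56 (SE, adjusted p = 0.553) from 3 infarcted values. Levels of Col18a1 varied more than 1 log2 unit within both groups.

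The further type IV chains that were tested had lower mean levels as well. Col4a5 had 0.08, 0.37, 0.42 and -0.07 on the infarcted arrays, against 0.99, 0.60, 0.43 and 1.07 on the sham arrays. Its groups did not overlap, though infarcted replicate 3 and sham replicate 3 came close, and the log2 fold change was -0.58 ± 0.24 (SE, adjusted p = 0.359). Col4a4 stood at -0.46 ± 0.26 (SE). Col4a6 stood at -0.54 ± 0.48 (SE) but at 0.41 when its most complete spot alone was used. Col4a3 had values on 2 infarcted and 4 sham arrays, between -2.88 and -1.69, and was not tested.

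Among other collagens, type VI, which forms beaded filaments around cells, had lower means on the infarcted arrays for both tested chains. Col6a1 had 1.39, 1.40, 1.97 and 1.91 on the infarcted arrays, against 2.64, 3.18, 1.81 and 2.77 on the sham arrays. Infarcted replicates 1 and 2 were below all sham arrays, whereas replicates 3 and 4 were above sham replicate 3, and the log2 fold change was -0.93 ± 0.32 (SE, adjusted p = 0.254). Col6a2 had 2.96, 3.07, 2.04 and 2.07 on the infarcted arrays, against 2.84, 3.21, 3.38 and 2.39 on the sham arrays. For this chain it was infarcted replicates 3 and 4 that lay below all sham arrays, with -0.42 ± 0.33 (SE, adjusted p = 0.679).

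Col14a1, a fibril-associated collagen of fibroblasts, had 1.04, 0.98, 0.56 and -0.04 on the infarcted arrays, against 0.47, 0.05, 0.31 and -0.09 on the sham arrays. Infarcted replicates 1, 2 and 3 were above all sham arrays and replicate 4 was not, with 0.45 ± 0.28 (SE, adjusted p = 0.584) and both spots higher. Col8a1, a short-chain collagen of vessel walls, had 0.18, -0.16, 0.75 and 1.59 on the infarcted arrays, against 0.91, -0.26, 0.76 and 0.67 on the sham arrays, a fitted 0.07 ± 0.41. Its groups overlapped. Col9a3, a fibril-associated chain of cartilage, had -1.86, -2.23, -1.58 and -1.98 on the infarcted arrays, against -1.21, -1.59, -1.48 and -1.12 on the sham arrays. The log2 fold change was -0.56 ± 0.23 (SE, adjusted p = 0.357), with mean levels below the block median throughout. A spot of Col9a3 with values on 2 infarcted and 4 sham arrays raised the means of sham replicates 1 and 4. With the most complete spots the value was -0.33 (adjusted p = 0.752). Col13a1, Col20a1 and Col26a1 stood at -0.31 ± 0.44, -0.11 ± 0.37 and 0.08 ± 0.28 (SE), the values of Col13a1 and Col26a1 resting on 3 sham arrays.

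Among bright features the fitted difference went with brightness over the whole array, and this touches the bright collagens. The 874 features at a mean level of 3 to 4, where Col1a2 and Col3a1 lay, had a median log2 fold change of -0.30. Features at 2 to 3 had -0.12, and those above 4 had -0.72. Below a level of 2 there was no such trend, with medians of -0.08 under -1, 0.02 from -1 to 0, -0.02 from 0 to 1 and -0.04 from 1 to 2. The 99th percentile of the signals was 5.05 to 5.24 on the infarcted arrays, against 5.65 to 6.31 on the sham arrays. Set against the median of its level, Col3a1 differed by -0.31 and Col1a2 by 0.11. Larger differences were those of Col1a1 (-1.16), Col4a1 (-1.10, its dim spot included), Col15a1 (-1.17), Col18a1 (1.00), Col6a1 (-0.82) and Lox (1.50). By class, these differences had medians of -0.31 for fibrillar, -0.47 for basement membrane and -0.18 for other collagens and 0.17 for enzymes. After quantile normalization the median of all features was 0.00, and the class medians were -0.18, -0.56, -0.14 and 0.21 in that order. The basement membrane chains then had 6 of 7 negative values, Col4a6 among them, and the fibrillar chains 6 of 9, where all features had 8981 of 18044.

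**Figure D4:**
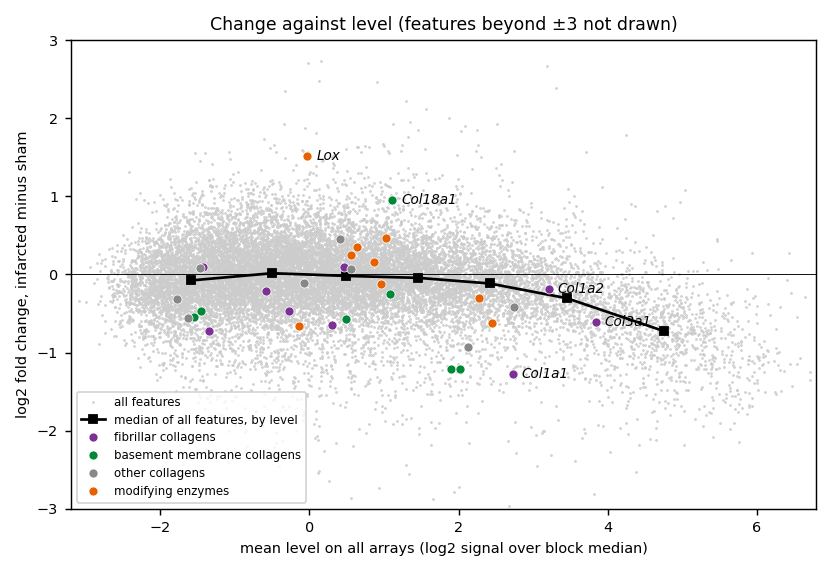
Log2 fold change, infarcted minus sham control, against the mean level on all arrays for all features with a change of at most 3 either way (grey points), with the median of all features by level as black squares and the 33 tested genes coloured by class. Col1a2 and Col3a1 lie near the black line, and Lox, Col18a1 and Col1a1 lie far from it.

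The other genes of collagen handling gave no call either. Of 15 folding, processing and secretion partners on the array 14 were tested, 0 passed, 7 had a positive and 7 a negative value, and the median was -0.01. The smallest p-values there were those of Crtap (-0.46 ± 0.34, SE), Colgalt1 (-0.33 ± 0.26) and P3h1 (-0.24 ± 0.23), which hydroxylate or glycosylate collagen or assist in it. Of 4 tested collagen receptors 0 passed, led by the collagen-sensing kinases Ddr2 (0.43 ± 0.22) and Ddr1 (0.23 ± 0.33) and the integrin Itgb1 (-0.13 ± 0.30). Of 10 tested genes of collagen breakdown 0 passed, with 4 positive and 6 negative. Timp1, an inhibitor of matrix metalloproteinases, stood at 0.66 ± 0.30 from 7 arrays, Ctsk, a collagen-cutting cathepsin, at 0.55 ± 0.27, and Mmp14, a membrane-bound collagenase, at -0.75 ± 0.36. Mmp14 had -1.12, -1.26, -0.96 and -1.06 on the infarcted arrays, against 0.58, -0.89, -0.73 and no value on the sham arrays, with no overlap among the 7 values.

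Cell type markers gave this background. Of 16 fibroblast markers 10 had positive and 6 negative values and 0 passed. Over the 13 with a value on every array, mean levels were 2.07 to 2.40 (infarcted), against 1.82 to 2.10 (sham). Postn, a matrix protein of activated fibroblasts, had 1.60, 1.20, 2.94 and 3.06 on the infarcted arrays, against -0.63, 0.00, 1.31 and 1.08 on the sham arrays. It was high on infarcted replicates 3 and 4, as Lox was, while Col4a1, Col15a1 and Plod1 were low there. Cthrc1 stood at 0.90 ± 0.29 (SE, adjusted p = 0.246), without overlap and with no value on sham replicate 2. Gsn, an actin-cutting protein, stood at -1.10 ± 0.24 (SE, adjusted p = 0.0985) from 7 arrays, also without overlap. After quantile normalization Gsn stood at -0.12. Its levels lay above 4, where all features had a median of -0.72. Endothelial markers had 6 of 9 negative values and a mean level of 1.89 to 2.31 on the infarcted arrays, against 2.11 to 2.59 on the sham arrays. Fabp4, a marker of capillary endothelium and fat, had 2.72, 2.37, 2.86 and 2.80 on the infarcted arrays, against 3.97, 3.37, 3.90 and 3.70 on the sham arrays, without overlap and with -1.04 ± 0.23 (SE, adjusted p = 0.084). After quantile normalization Fabp4 stood at -0.58.

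Smooth muscle and pericyte markers had 7 of 11 negative values. Over the 10 with a value on every array, means were 1.79 to 2.25 (infarcted), against 1.90 to 2.38 (sham). Macrophage markers had 11 of 12 positive values, with means of 1.34 to 1.81 on the infarcted arrays, against 0.61 to 1.08 on the sham arrays, and 0 passed. Gpnmb, a glycoprotein of macrophages, stood at 1.58 ± 0.31 (SE, adjusted p = 0.06). The 5 tested heart muscle markers of 12 on the array had 3 positive and 2 negative values. Those not tested had fewer values on the sham than on the infarcted arrays. Atp2a2, for example, had a value on every infarcted array and on no sham array. After quantile normalization Ckm turned from -0.69 to 0.23, while Mybpc3 stayed negative at -0.31. Mesothelial markers had 3 of 6 negative values, skeletal muscle 2 of 5, and the nerve and lymphocyte lists had 2 and 3 tested genes. The part of any of these cells in the collagen values was not tested.

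**Figure D5:**
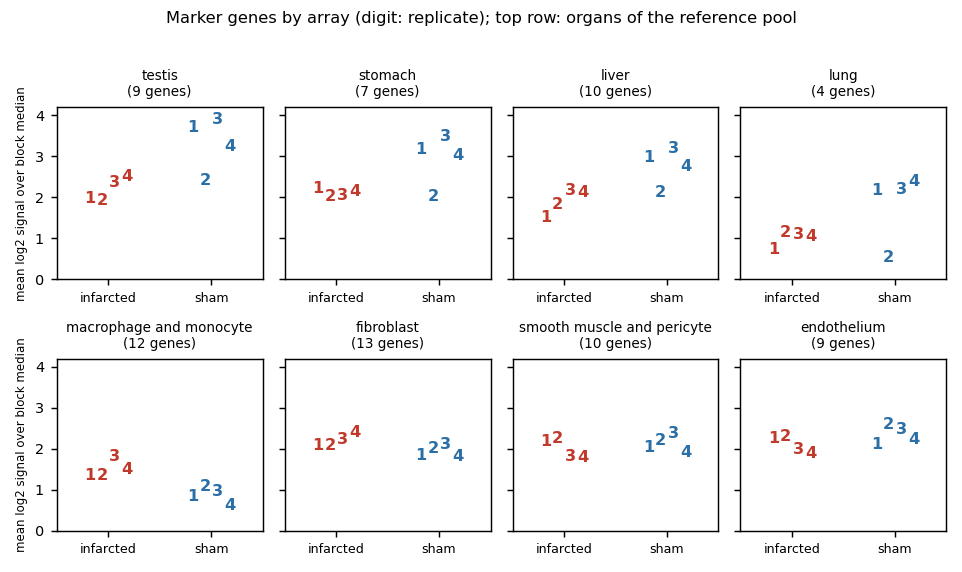
Mean log2 signal over the block median of marker genes with a value on all arrays, infarcted left and sham control right in each panel, with digits for the replicates. The upper row holds testis, stomach, liver and lung, organs of the reference pool for which sham replicates 1, 3 and 4 stand above the infarcted arrays, and the lower row holds cell types of the heart.

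Of the 49 genes, 16 could not be tested. They were Col4a3, Loxl3, Loxl4, P4ha3, Col11a1, Col24a1, Col10a1, Col17a1, Col19a1, Col22a1, Col23a1, Col6a4, Col6a6, Col7a1, Col9a1 and Col9a2. In 6 of them no spot had a value on any array. The other 10 had levels between -3.27 and -0.81 where a value was present, with signals of at most 320. Missing values were not limited to dim spots on these arrays, since spots with a signal over 20000 lacked 38 values on the infarcted and 190 on the sham arrays. The highest signal kept for any spot of the 49 genes was 13281, at Col4a1, and the 22 of their spots with no value on any array have no signal to compare.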

How the data were processed

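Whole-heart RNA of 4 infarcted and 4 sham-operated mice was measured on 8 spotted 2-colour arrays, per the labels. The deposited log2 values were found to be block-scaled signals of 1 channel. Over 384 pairs of block and array, 1 constant a pair turned 100.0% of values into whole numbers within 0.001. Software, background correction and flagging are unknown here. Values numbered 21916 to 23655 per infarcted and 19704 to 24819 per sham array.

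Probes were named from the platform annotation (18179 with 1 symbol, 87 with several, 15334 unnamed), and spots of a gene were averaged. Arrays were centred on the median. Features with at least 3 values per group went into limma 3.58.1 (lmFit, eBayes) under R 4.3.3, with Benjamini-Hochberg adjustment over 18044 features. The fit was also run on simulated data, with changes larger than any fitted here for collagens or modifying enzymes. That run thus does not show how often smaller changes would pass. Quantile and loess scaling, other filters and spot rules, array weights, a trended variance, the replicate block and leaving out each array were tried as alternatives. The number of arrays limits the precision. Collagens and modifying enzymes given by array were fixed by name or had the 10 smallest p-values, except Pcolce2, which fell under neither rule. Prm1 and Tff1 belong to the organ genes chosen after their values were seen. Sox9, Mmp14, Postn and Fabp4 had small p-values within their own lists. The genes and lists were chosen with earlier results of these data known.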

Additional observations from a re-analysis of the deposited data

Results flagged for a closer look

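In 63 groups of 4 arrays over the tested genes, 4 values lay far enough from the other 3 arrays to pass Dixon's test for an outlier, which chance does in about 1 of 20 groups. Col5a2 had a level of -0.56 on infarcted replicate 4, where the other infarcted arrays had 0.83 to 0.89 and the sham arrays 0.38 to 0.46. Col4a2 had 1.62 on infarcted replicate 2, where the others had 0.66 to 0.78, but the level of infarcted replicate 1 includes a dim spot that the other infarcted arrays lack. Over the 5 comparable spots infarcted replicate 1 had 1.42, and replicate 2 no longer lay apart. Col4a6 had -2.63 on sham replicate 2, where the others had -1.01 to -0.71. This gene too had spots present on some arrays alone, and at its 1 comparable spot sham replicate 2 had -2.98 and the others -2.03 to -1.32, which does not pass the test. Pcolce2 had 1.13 on sham replicate 2, where the others had 0.63 to 0.71.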

How the results depend on the processing

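None of the collagens or modifying enzymes passed in any of the 18 fits, and their lowest adjusted p was 0.0629, for Lox without sham replicate 4. Of 294 gene values from alternatives that kept all arrays 286 had the direction of the main fit. Many of these values could not turn. The trended variance and the filters on the number of values leave each fold change as it was. The replicate block does so for genes with a value on every array, and the spot rules for the 17 tested genes with values on 1 spot. The count of 286 is thus no measure of how firm the signs were. The number of changed features was 32 with quantile normalization, 1 with the replicate block, 327 with array weights, and 3 to 615 with 1 array left out. Deviations of arrays with the same number correlated at 0.02, 0.31, -0.08 and -0.19, so the numbers were not read as pairs, and with the replicate block the lowest adjusted p of the genes was 0.209. Quantile normalization turned Col1a2 to 0.12 and Col26a1 to -0.017, and loess turned Col1a2 to 0.15. With the most complete spots Col13a1 stood at 0.13, Col26a1 at -0.053 and Col4a6 at 0.41, and with array weights Col27a1 stood at -0.052 and Col8a1 at -0.068. Without 1 array at a time, Col5a2 ran from -0.034 to 0.45, Plod3 from -0.0086 to 0.30, Col20a1 from -0.41 to 0.14, Col26a1 from -0.066 to 0.18, Col8a1 from -0.26 to 0.32, Col11a2 from -0.52 to 0.051 and Col27a1 from -0.052 to 0.23. The causes were not tested. Dim spots and missing values limit what could be tested.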
